A study of Homo sapiens with 4 samples.

Results

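The genes described here are 10 negative feedback and target genes of the ERK pathway in SKBR3 cells, out of 56271 rows in the table of gene counts. They were chosen by name: the MAPK phosphatases DUSP1, DUSP4, DUSP5, DUSP6 and DUSP10, the Sprouty genes SPRY2 and SPRY4, the Sprouty-related genes SPRED1 and SPRED2, and the ETS transcription factor ETV5. All 10 names were found, each as a single row. SKBR3 is an established breast cancer line with amplified HER2. Poly-A RNA was sequenced in 4 libraries, 2 labelled eGFP control and 2 labelled VIRMA-overexpressing, and the comparison asks which transcripts differ when VIRMA, a scaffold of the complex that writes m6A on RNA, is raised. Per the study's methods, control cells carried a lentiviral vector with eGFP behind the human ubiquitin C promoter. VIRMA-overexpressing cells carried HA-tagged VIRMA and eGFP, set apart by a p2A sequence, in the same vector backbone. The study describes the VIRMA in its SKBR3 sequencing as the full-length isoform. Both groups of cells were sorted for eGFP and expanded as populations. Labels of both groups mention culture in low oxygen, which the study's methods do not give for RNA sequencing, and the oxygen level is therefore uncertain. A difference between the 2 cell populations that has another origin cannot be told apart from VIRMA overexpression.

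HER2 and its partner receptors signal through RAS, RAF and MEK to the kinases ERK1 and ERK2. Active ERK switches on genes whose products shut the pathway down again. MAPK phosphatases (DUSPs) remove phosphate from the activation loop of ERK, p38 or JNK, whereas Sprouty and SPRED proteins act upstream, at the level of RAS and RAF. The levels of these transcripts are widely used as a readout of ERK output in HER2-driven cells, although several of them also respond to stress kinases, and DUSP1 is in addition an immediate early gene.

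The libraries held 81446932 to 86375474 counts. VIRMA, listed as KIAA1429, had 8.54 and 8.16 CPM (counts scaled to library size) in the control pair and 40.1 and 41.4 CPM under VIRMA overexpression, a log2 fold change of 2.29 (± 0.0685 SE, adjusted p 9.74e-26 by edgeR). The 8 luminal markers of SKBR3 cells summed to 28400 and 27900 CPM in the control pair and 26200 and 26500 CPM under VIRMA overexpression. Of the 7 tested, 3 were higher and 3 lower, among them KRT8 at -0.51, EPCAM at -0.39 and KRT7 at 0.49 on the log2 scale (adjusted p 1.7e-22, 4.43e-12 and 3.26e-20 by edgeR). The receptor itself, ERBB2, had 7020 ± 116 CPM in controls and 7000 ± 2.22 CPM in VIRMA-overexpressing cells (SD, n = 2). Markers of blood cells differed between the groups. The 12 erythroid markers summed to 28.2 and 20.4 CPM in the control pair and 0.583 and 0.395 CPM under VIRMA overexpression, mostly HBB, with 2.48 and 1.99 against the same 0.583 and 0.395 CPM once HBB was left out. The 15 leukocyte markers summed to 36.8 and 33.3 CPM against 21.1 and 20.6 CPM. CSF1R alone had 27.5 and 26.2 CPM in the control pair and 13.9 CPM in each VIRMA-overexpressing library, which made most of this gap. ITGB2, the next largest, overlapped between the groups, at 5.31 and 4.62 against 4.76 and 4.56 CPM. PTPRC had 23 and 13 counts against 3 and 0, and MS4A1 was at 0 throughout. Controls lay above with no overlap in CPM in 9 of the 12 and 8 of the 15 markers, and below in 0 and 2. Among all 33976 genes with at least 1 count, 25.0% lay apart with controls higher and 28.9% with controls lower. The 10 fibroblast and endothelial markers summed to 21.4 and 19.8 against 16.4 and 18.0 CPM, and the 6 markers low in SKBR3 cells to 1.39 to 1.99 CPM, with PGR and CDH2 at 0. The part of blood-cell RNA in the results below was not tested. In bulk RNA, a change in the level per cell and a change in the share of cells that express a gene cannot be told apart. The replicates are described as biological duplicates, and p-values measure the spread between them.

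Across the 10 genes, feedback transcripts were mostly higher in VIRMA-overexpressing cells, with DUSP1 as the exception. DUSP6, the ERK-specific cytoplasmic phosphatase, was 3.63-fold higher. SPRY2 was 1.85-fold, SPRY4 1.50-fold, SPRED1 1.41-fold, DUSP4 1.30-fold and DUSP5 1.26-fold higher, whereas DUSP1 was 1.89-fold lower. SPRED2 differed by less than its spread, and DUSP10 and ETV5 had few counts. When all 33976 genes with at least 1 count were tested with edgeR, so that every one of the 10 entered, 7 were higher and 1 lower at an adjusted p below 0.05, against 14.4% higher and 15.3% lower among all genes. In the main fit, limited to 12205 genes with more than 1 RPKM (reads scaled to gene length and library size) in at least 2 libraries, 8 of the 10 were tested, and 6 were higher and 1 lower, against 35.1% and 35.9% of all tested genes. Neither count is support for a direction, since the 10 genes were chosen with earlier results of these data known. The shares of the first count also include the many genes below the filter, where few are called. In the second, DUSP6, SPRY2 and SPRED1 passed the filter only through the VIRMA-overexpressing libraries. With the added threshold of a 2-fold change, DUSP6 alone was called higher, against 4.52% of tested genes, and DUSP1 fell short of it on the lower side, where 2.93% were called. Control and VIRMA-overexpressing libraries did not overlap in CPM for 8 of the 10 genes. With 2 libraries a group this is common: among the 33976 genes, 28.9% lay apart with VIRMA-overexpressing libraries higher and 25.0% with them lower, and among the 12205 genes past the filter the shares were 42.5% and 41.8%.

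**Figure D1:**
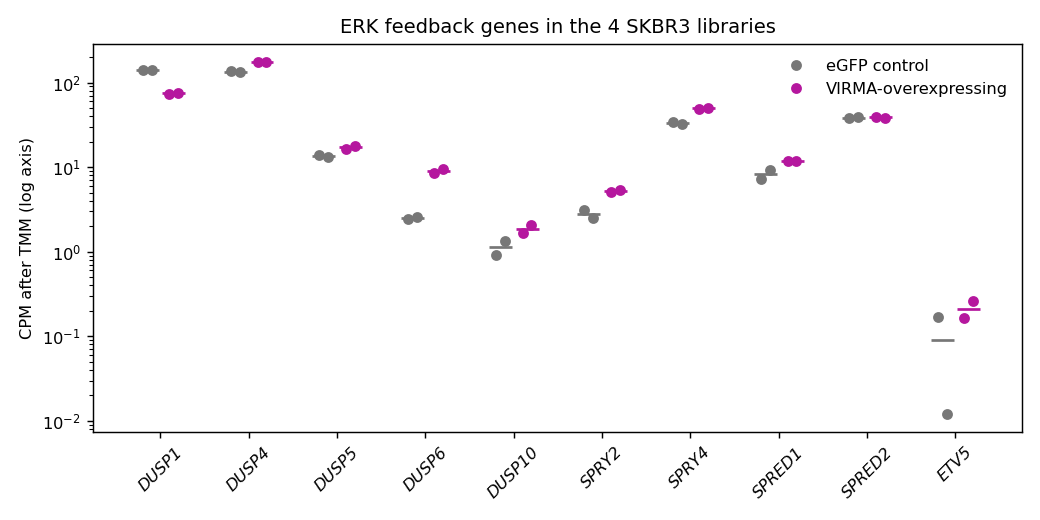
Expression of the 10 genes in each library, as CPM after TMM scaling on a log axis; points are libraries and horizontal lines are group means (n = 2). The groups are apart for 8 genes, DUSP1 is the only one of these with controls on top, and SPRED2 and ETV5 overlap, beside 28.9% (higher) and 25.0% (lower) of all 33976 genes with groups apart.

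DUSP1, also called MKP-1, is a nuclear phosphatase that acts on p38, JNK and ERK and is induced within minutes by growth factors and stress. Its row lies on chromosome 5, 172768090 to 172771195, minus strand (GRCh38). It had 11728 and 11723 counts in the control pair and 6286 and 6308 under VIRMA overexpression, or 141.0 and 140.0 against 73.3 and 75.4 CPM. The groups were far apart and the replicates nearly equal. DUSP1 fell by 0.92 on the log2 scale (± 0.0362 SE, adjusted p 3.46e-22 by edgeR), the smallest adjusted p among the 8 genes in the main fit. It remained the most abundant of the 10 per unit length in both groups, at 67.6 ± 0.569 RPKM in controls and 37.9 ± 0.582 RPKM in VIRMA-overexpressing cells (SD, n = 2).

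The promoter of DUSP1 is shown because this gene alone fell. The SPRY2 window was picked after the motif search, as the only matched window of a gene that rose that held any of the spellings searched. Each is the RefSeq sequence (GRCh38.p14) of the 250 bases before an annotated start. RefSeq windows were matched for 7 of the 10 genes. The motif spellings searched, on both strands, were the cyclic AMP response element TGACGTCA, its core TGACGT (contained in it), the AP-1 site TGANTCA, an ETS core CCGGAA, the amino acid response element TGATGNAA and the E-box CACGTG. Capitals mark the matches, written 5′ to 3′ on the gene's strand.
DUSP1, chr5:172771196-172771445, minus strand: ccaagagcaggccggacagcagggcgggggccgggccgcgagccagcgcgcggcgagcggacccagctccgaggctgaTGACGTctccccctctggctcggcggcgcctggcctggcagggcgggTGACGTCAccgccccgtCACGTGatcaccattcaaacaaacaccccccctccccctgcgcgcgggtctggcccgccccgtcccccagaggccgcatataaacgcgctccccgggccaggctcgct
SPRY2, chr13:80341127-80341376, minus strand: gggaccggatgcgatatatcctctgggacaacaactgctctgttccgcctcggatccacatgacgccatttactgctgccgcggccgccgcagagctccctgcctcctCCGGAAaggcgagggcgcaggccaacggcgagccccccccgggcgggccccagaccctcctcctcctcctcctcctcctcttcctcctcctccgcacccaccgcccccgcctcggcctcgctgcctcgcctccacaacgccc
The DUSP1 window held 1 full cyclic AMP response element, beginning 125 bases before the start, which 1.65% of 35116 windows of the same length hold. It also held the core at 172 bases, apart from the full element, with the core present in 7.1% of windows, and an E-box at 108 bases, present in 6.34%. The SPRY2 window, at the most upstream of its 3 RefSeq starts and outside the deposited row, held an ETS core at 142 bases, present in 14.5% of windows. The windows of DUSP6, SPRY4, SPRED1 and DUSP10 and the other SPRY2 windows held none of these spellings, and 1 SPRED2 window held the amino acid response element, present in 3.14% of windows. The windows of DUSP6 and SPRED1 lie wholly in the deposited exons (250 bases each), and that of SPRY4 with 170 bases. For these 3 genes the bases before the outer end of the counted row were not searched. A match describes the letters and does not show that a factor binds there, and no match says only that these letters are not in the window.

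DUSP6, also called MKP-3, is the cytoplasmic phosphatase that is selective for ERK and is itself a target of the ETS factors that ERK activates. Its row lies on chromosome 12, 89347232 to 89353271, minus strand. It had 202 and 213 counts in the control pair and 725 and 801 under VIRMA overexpression, or 2.43 and 2.55 against 8.46 and 9.58 CPM. All values of the VIRMA-overexpressing libraries were above both controls, the closest pair differing by 3.32-fold. The log2 fold change was 1.86 (± 0.137 SE, adjusted p 1.99e-14 by edgeR). A row on the opposite strand overlaps its exons and held 8 and 21 counts in the control pair and 14 and 11 under VIRMA overexpression. Despite the rise, DUSP6 stayed a low-abundance transcript, at 2.01 ± 0.167 RPKM in VIRMA-overexpressing cells (SD, n = 2).

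DUSP4 and DUSP5 are nuclear phosphatases, of which DUSP5 is selective for ERK. DUSP4, on chromosome 8, 29333064 to 29350668, minus strand, had 136.0 and 134.0 CPM in the control pair and 177.0 and 174.0 CPM under VIRMA overexpression. The groups did not overlap, and the log2 fold change was 0.38 (± 0.0328 SE, adjusted p 1.02e-12 by edgeR). DUSP5, on chromosome 10, 110497838 to 110511544, plus strand, had 14.1 and 13.1 CPM against 16.3 and 18.0 CPM. Its log2 fold change was 0.34 (± 0.0804 SE, adjusted p 0.00036 by edgeR), with groups that were apart but close.

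DUSP10, or MKP-5, prefers p38 and JNK over ERK and so is the member least tied to the ERK loop. It lies on chromosome 1, 221701424 to 221742176, minus strand, and was below the RPKM filter. It had 77 and 113 counts in the control pair and 143 and 174 under VIRMA overexpression. The groups did not overlap, and without a filter the log2 fold change was 0.68 (± 0.253 SE, adjusted p 0.0246 by edgeR). This call was lost with DESeq2 (adjusted p 0.121) and limma-voom (adjusted p 0.123). It was also lost in edgeR without eGFP control replicate 1 (0.43, adjusted p 0.31), VIRMA-overexpressing replicate 1 (0.845, adjusted p 0.233) or VIRMA-overexpressing replicate 2 (0.52, adjusted p 0.448).

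Reading the whole family of MAPK phosphatases per unit length showed a shift in its make-up. The 10 catalytically active phosphatases of the family, 5 of them named above and DUSP2, DUSP7, DUSP8, DUSP9 and DUSP16 besides, summed to 117.0 and 116.0 RPKM in the control pair and 98.7 and 101.0 RPKM under VIRMA overexpression. Library totals, used for RPKM, shifted the log2 fold changes of tested genes up by a median of 0.09 from TMM scaling. The RPKM sums here and in the next paragraph carry that shift. DUSP1 made up 58.1% and 58.2% of the sum in the control pair and 38% and 37.8% under VIRMA overexpression. DUSP4 rose from 15.5% and 15.4% to 25.5% and 24.3% of it. The ratio of DUSP4 to DUSP1, which does not depend on the scaling between libraries, was 0.267 and 0.265 in the control pair and 0.671 and 0.642 under VIRMA overexpression.

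**Figure D2:**
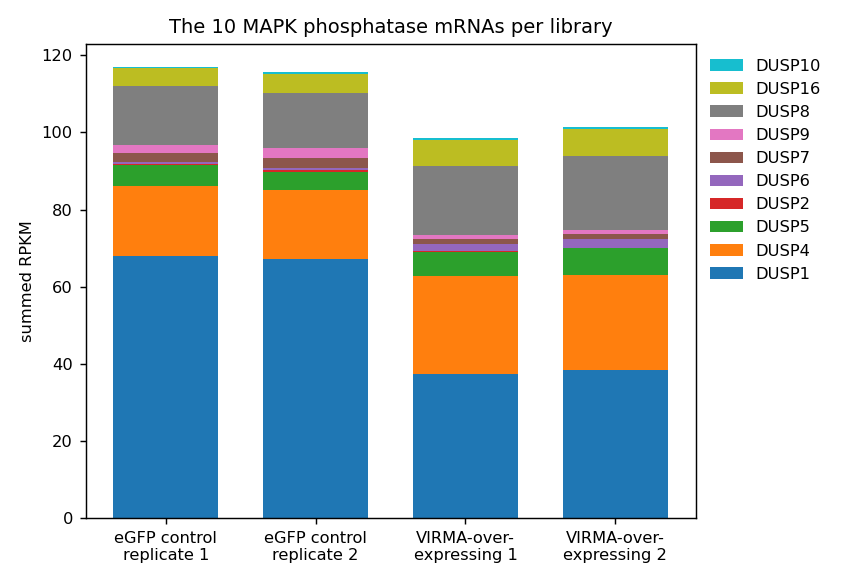
Summed RPKM of the 10 MAPK phosphatase transcripts in each library, with 1 colour per gene. DUSP1 is the largest segment in every library and shrinks in the VIRMA-overexpressing ones, where the DUSP4 and DUSP8 segments are taller.

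The 3 cytoplasmic, ERK-selective phosphatases did not move together. DUSP6 rose, whereas DUSP9 fell from 6.24 and 7.25 to 2.70 and 2.59 CPM, a log2 fold change of -1.35 (± 0.148 SE, adjusted p 4.36e-10 by edgeR), and DUSP7 fell from 13.3 and 15.2 to 7.57 and 7.34 CPM, a log2 fold change of -0.93 (± 0.0966 SE, adjusted p 1.22e-10 by edgeR). The 3 summed to 4.99 and 5.67 RPKM in the control pair and 4.28 and 4.42 RPKM under VIRMA overexpression. The ratio of DUSP6 to DUSP9 went from 0.233 and 0.211 to 1.88 and 2.21, so that the less abundant of the pair in controls was the more abundant in VIRMA-overexpressing cells. The phosphatases that prefer JNK and p38 (DUSP8, DUSP10 and DUSP16) summed to 20.3 and 19.6 RPKM in the control pair and to 25.3 and 26.9 RPKM under VIRMA overexpression. In this class DUSP16 rose by 0.44 (± 0.0553 SE, adjusted p 1.06e-08 by edgeR) and DUSP8 by 0.25 on the log2 scale (± 0.0422 SE, adjusted p 3.74e-06 by edgeR), although DUSP8 has pseudogene copies and its counts are uncertain. DUSP2, a nuclear phosphatase known mainly from lymphocytes, was below the filter with 51 and 56 counts in the control pair and 5 and 14 under VIRMA overexpression. DUSP2 moved in the same direction as the sums of the erythroid and leukocyte markers, but CSF1R made most of the gap in the leukocyte sum. Of the 15 leukocyte markers, controls lay above without overlap in 8 and below in 2. Those 2 were CD3E, with 73 and 60 against 87 and 90 counts, and NKG7, with 6 and 9 against 26 and 15. The part of blood-cell RNA in DUSP2 was not tested.

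Sprouty proteins block RAS activation below receptor tyrosine kinases. SPRY4, on chromosome 5, 142310427 to 142326455, minus strand, had 33.8 and 32.4 CPM in the control pair and 48.8 and 50.3 CPM under VIRMA overexpression, with no overlap. Its log2 fold change was 0.59 (± 0.0499 SE, adjusted p 9.29e-13 by edgeR). SPRY2, on chromosome 13, 80335976 to 80340951, minus strand, was counted 259 and 209 times in the control pair and 431 and 447 under VIRMA overexpression, or 3.12 and 2.5 against 5.03 and 5.34 CPM. Its log2 fold change was 0.89 (± 0.159 SE, adjusted p 6.89e-06 by edgeR), and it crossed the 2-fold threshold without eGFP control replicate 1 (1.05). SPRY1, a relative outside the 10 genes, rose from 18.9 and 18.5 to 34.8 CPM in each VIRMA-overexpressing library (log2 fold change 0.90 ± 0.0613 SE, adjusted p 2.3e-15 by edgeR). SPRY4 was the more abundant of the 2 named Sprouty genes in every library, by 5.56 and 6.63 times per unit length in controls and 4.97 and 4.83 times in VIRMA-overexpressing cells.

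SPRED proteins recruit neurofibromin, the RAS GTPase-activating protein encoded by NF1, to the membrane. The 2 SPRED genes differed. SPRED1, on chromosome 15, 38252326 to 38357249, plus strand, had 601 and 781 counts in the control pair and 1000 and 975 under VIRMA overexpression, or 7.23 and 9.34 against 11.7 and 11.7 CPM. The log2 fold change was 0.50 (± 0.106 SE, adjusted p 9.23e-05 by edgeR), and the size of the rise depended on which control was used, at 0.32 without eGFP control replicate 1 and 0.69 without eGFP control replicate 2. SPRED2, on chromosome 2, 65310851 to 65432637, minus strand, had 38 and 38.9 CPM in the control pair and 39.7 and 38.1 CPM under VIRMA overexpression. These ranges overlapped, with a log2 fold change of 0.02 (± 0.0511 SE, adjusted p 0.744 by edgeR), a direction that turned in 5 of 13 alternatives. The ratio of SPRED2 to SPRED1 per unit length was 8.42 and 6.68 in the control pair and 5.46 and 5.24 under VIRMA overexpression. NF1 itself was higher, at 41.7 and 43.0 against 63.9 and 61.5 CPM (log2 fold change 0.57 ± 0.0451 SE, adjusted p 1.31e-13 by edgeR).

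ETV5, with ETV1 and ETV4 a member of the PEA3 group of ETS factors, was barely detected. Its row, on chromosome 3, 186046308 to 186110318, minus strand, held just 14 and 1 counts in the control pair and 14 and 22 under VIRMA overexpression. The groups overlapped, and the summed counts of 15 (95% exact Poisson interval 8.40 to 24.7) and 36 (25.2 to 49.8) cover counting error only. Without a filter the log2 fold change was 1.2 (± 0.853 SE, adjusted p 0.364 by edgeR), a difference that was not detectable at this depth. A single library set the value, which ran from 0.31 without eGFP control replicate 2 to 3.96 without eGFP control replicate 1, where it passed (edgeR adjusted p 0.027). ETV4, of the same group, rose from 21.6 and 19.7 to 30.0 and 31.2 CPM (log2 fold change 0.57 ± 0.0643 SE, adjusted p 8.18e-10 by edgeR).

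**Figure D3:**
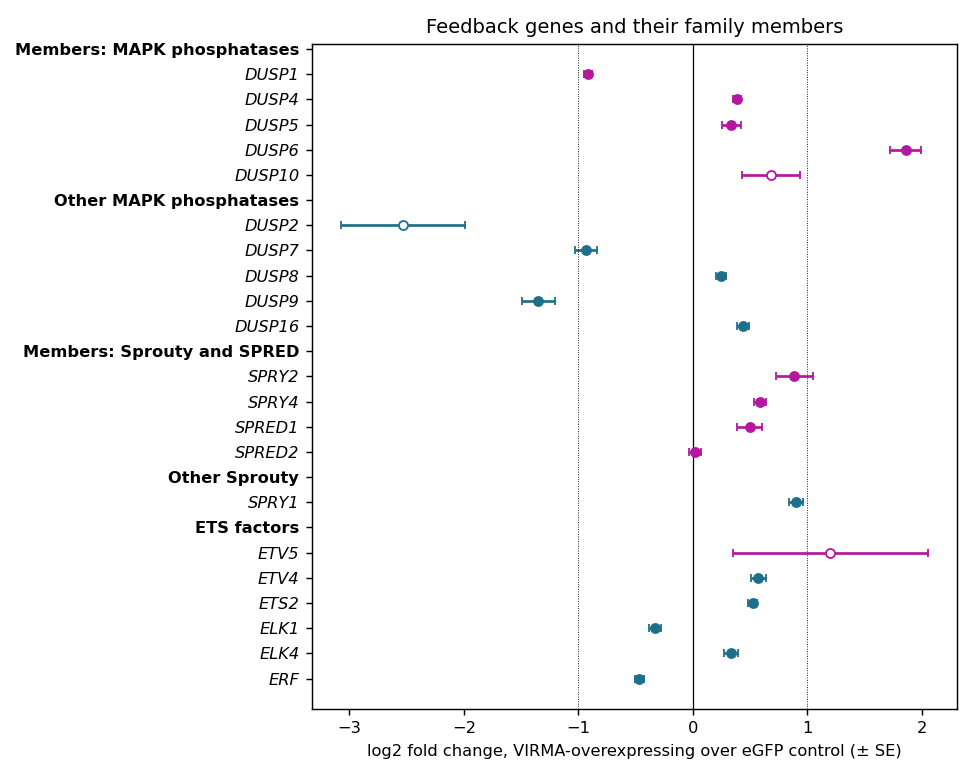
Log2 fold change (± SE) of VIRMA-overexpressing over eGFP control for the 10 genes and their relatives; magenta marks the 10 genes, teal their relatives, open symbols genes below the RPKM filter, and dotted lines a 2-fold change. DUSP6 lies beyond 2-fold on the right, as does ETV5 with a wide error, DUSP9 and DUSP2 beyond 2-fold on the left, and SPRY1, SPRY2 and SPRY4 lie to the right of 0.

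By level, the order in controls was DUSP1, DUSP4, SPRED2, SPRY4, DUSP5, SPRED1, SPRY2, DUSP6, DUSP10 and ETV5, in RPKM. SPRED1 (0.852 to 1.09) and SPRY2 (0.796 to 0.998) overlapped, and the other neighbours were apart over the 2 libraries. In VIRMA-overexpressing cells SPRY4 (8.50 to 8.72) stood above SPRED2 (7.59 to 7.97). DUSP6 (1.89 to 2.12) moved from eighth place to sixth, above SPRY2 (1.71 to 1.81) and SPRED1 (1.45 to 1.46). No neighbours overlapped in that group. Of all 12205 tested genes, the profile over the 4 libraries closest to that of DUSP6, by root mean square difference of centred log2 CPM, was that of TUBE1 (0.0417). For DUSP1 it was PGD (0.0027) and for SPRY2 the pseudogene BMS1P1 (0.0359). With 4 libraries in 2 groups, such likeness is set mostly by an equal fold change.

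The rest of the pathway was read from 8 further lists of 96 genes, of which 73 were tested. Their counts stand beside 35.1% higher and 35.9% lower among all tested genes, where the median log2 fold change was 0.01. Of the 20 ERK-induced genes, which include the transcription factors EGR1 and FOS, 11 were tested, 2 of them higher and 8 lower, with a median log2 fold change of -0.32. EGR1 fell from 319.0 and 321.0 to 199.0 and 197.0 CPM (log2 fold change -0.69 ± 0.0306 SE, adjusted p 1.08e-20 by edgeR). PLAUR, the urokinase receptor, fell by 0.85 on the log2 scale (± 0.0900 SE, adjusted p 1.81e-10 by edgeR). IER3, a stress-responsive survival gene, rose from 232.0 and 213.0 to 333.0 and 320.0 CPM, by 0.55 on the log2 scale (± 0.0343 SE, adjusted p 1.62e-16 by edgeR). Without a filter all 20 were tested, 3 higher and 10 lower. PHLDA1 had the largest rise, from 124 and 107 to 397 and 320 counts, 2.98-fold (adjusted p 8.4e-15 by edgeR). EGR2 had the largest fall, from 163 and 137 to 40 and 53 counts, 3.34-fold (adjusted p 3.06e-08 by edgeR). Among the named ERK targets, DUSP1 moved with EGR1, EGR2, FOS and PLAUR, of the 10 that were lower. DUSP6, SPRY2, SPRY4, DUSP4 and DUSP5 moved with IER3 and PHLDA1, of the 3 that were higher. Only directions are compared here. Of the 8 other ETS factors 6 were tested, 3 higher and 2 lower, with ETS2 rising by 0.52 (± 0.0415 SE, adjusted p 1.43e-13 by edgeR).

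Among 12 other feedback proteins and partners, 11 were tested, with 4 higher and 3 lower and a median of 0.10. ERRFI1, which binds and inhibits the kinase domains of EGFR and HER2, rose from 47.5 and 50.4 to 122.0 and 123.0 CPM, a log2 fold change of 1.32 (± 0.0398 SE, adjusted p 1.09e-25 by edgeR). CBL, the ubiquitin ligase that Sprouty proteins bind, was at 0.10 (± 0.0548 SE, adjusted p 0.12 by edgeR). Its paralogue CBLB, below the RPKM filter, rose from 374 and 336 to 924 and 751 counts, 2.27-fold (adjusted p 4.22e-21 by edgeR without a filter). Of 23 genes from the receptors to ERK and its kinase targets, all were tested, 9 were higher and 8 lower, with a median of -0.02. The scaffold KSR1 rose by 1.17 (± 0.0698 SE, adjusted p 5.24e-17 by edgeR) and the ribosomal S6 kinase RPS6KA2 by 1.43 (± 0.0461 SE, adjusted p 7.86e-25 by edgeR). Among the 8 lower, RPS6KA1 had the largest fall (-0.73 ± 0.041 SE, adjusted p 8.22e-18 by edgeR). MAPK3, the gene of ERK1, was also lower (-0.54 ± 0.0403 SE, adjusted p 2.24e-14 by edgeR). Transcript levels do not measure the phosphorylation of ERK.

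The list of the p38 and JNK branch holds the kinases that DUSP1, DUSP10 and DUSP16 act on, with genes above and below them. Of its 15 genes 10 were tested, 3 higher and 6 lower, with a median of -0.14. The kinase gene MAPK8 (JNK1) rose by 0.54 (± 0.0704 SE, adjusted p 1.89e-08 by edgeR) and its transcription factor substrate ATF2 by 0.84 (± 0.0987 SE, adjusted p 2.31e-09 by edgeR). Among the 6 lower, MAPKAPK3 had the largest fall (-0.48 ± 0.0436 SE, adjusted p 4.63e-12 by edgeR). The JNK gene MAPK9 was also lower (-0.30 ± 0.0450 SE, adjusted p 2.46e-07 by edgeR). Of 10 atypical dual-specificity phosphatases, which lack the MAPK-binding domain, 7 were tested, 2 higher and 1 lower, with a median of 0.08. DUSP23 fell by 0.69 (± 0.0469 SE, adjusted p 2.18e-15 by edgeR) and DUSP28 rose by 0.44 (± 0.120 SE, adjusted p 0.00157 by edgeR). Of 5 other MAPK phosphatases, 4 were tested, with 2 higher and 2 lower, and of 3 other Sprouty and SPRED genes SPRY1 was tested.

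Exonic length ran from 2019 bases for DUSP1 to 8260 for SPRED1. Median log2 fold changes of all tested genes were 0.02, -0.11, -0.00 and 0.13 from the shortest to the longest quartile, with no steady order. DUSP1 lies in the quartile of 33 to 2249 bases, DUSP6 in that of 4191 to 6641 bases, and SPRED1 and DUSP4 in the longest. No length correction was run, and the part of length in these fold changes was not tested.

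**Figure D4:**
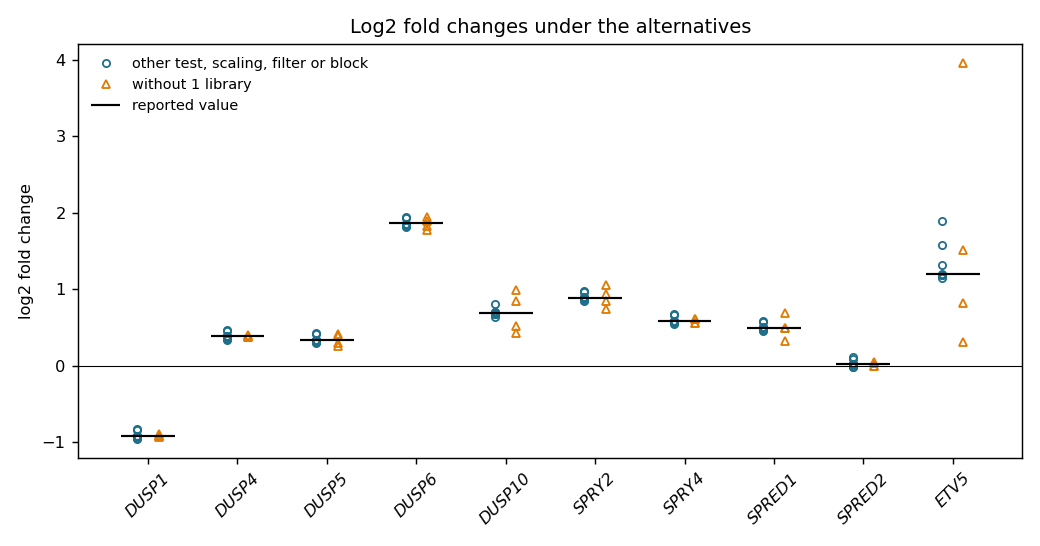
Log2 fold change of each gene under every alternative; lines are reported values, circles other tests, scalings, filters or the replicate block, and triangles fits without 1 library. DUSP1 stays between -0.96 and -0.83 and DUSP6 between 1.77 and 1.95, while ETV5 spreads from 0.31 to 3.96.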

How the data were processed

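Raw counts per gene of 4 poly-A RNA-sequencing libraries of SKBR3 cells were analysed. Per the labels and the study's methods, the authors trimmed reads with Trimmomatic 0.39, aligned them to hg38 with STAR 2.5.2a and counted them with featureCounts, and the deposited counts were not normalized. The strand setting is not given in the sources used here. Control columns name the control, and the other 2 were assigned as the remaining group, which VIRMA checks. All 10 rows overlapped their GENCODE gene on the same strand.

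RPKM used library totals and the deposited exonic lengths. Genes with RPKM above 1 in at least 2 libraries were compared with edgeR 4.0.16 in R 4.3.3 (quasi-likelihood test, TMM, group only, Benjamini-Hochberg over 12205 genes). Members below the filter were fitted without one (33976 genes). CPM used library totals times TMM factors. The SE is the estimate divided by the root of its F statistic. With 2 against 2 libraries an exact permutation test cannot go below 0.33. On simulated counts for 12205 genes, 82% of genes changed by 0.5 and 99% of those changed by 1.5 on the log2 scale were recovered. Only 100 genes were changed by each size, equally up and down, far fewer than were called in the data. The simulation therefore does not test the scaling between libraries.

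Members and lists were chosen with earlier results of these data known. Named were all members, VIRMA, of each list the genes past both thresholds or otherwise the 2 largest called changes, and the closest profile for the 3 members that changed most. DUSP2, DUSP7, DUSP8, DUSP16, NF1, CBL, CBLB, FOS, IER3, PHLDA1, EGR2, MAPK3, MAPK9, MAPKAPK3, RPS6KA1 and the single cell type markers were named after their values were seen. The family sums and ratios were also chosen after their values were seen. Alternatives were DESeq2 1.42.0, limma-voom (limma 3.58.1), other scalings and filters, the replicate block and leaving out each library.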

Additional observations from a re-analysis of the deposited data

How the results depend on the processing

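DUSP1, DUSP4, DUSP5, DUSP6, SPRY2, SPRY4 and SPRED1 held the reported direction and call in all 13 alternatives each. SPRED2 reversed with filterByExpr (-0.024), no filter (-0.015) and at least 10 counts in every library (-0.01), filters that shift all shared genes by -0.04, -0.03 and -0.03. It ranged from -0.011 to 0.049 when a library was left out, reversed without eGFP control replicate 1 (-0.002) and without VIRMA-overexpressing replicate 1 (-0.011). Upper-quartile factors and library totals shifted the median of all genes by 0.07 and 0.09. Some list counts moved as well. Atypical phosphatases called higher went from 2 to 4 with both of these scalings, and to 1 with DESeq2 and the filters named above. The p38 and JNK genes called higher went from 3 to 6 with those filters. Genes from the receptors to ERK called lower went from 8 to 5 with library totals. DUSP10 was no longer called with DESeq2 (0.67) and limma-voom (0.699), the cause of which was not tested, and ranged from 0.431 to 0.992 without 1 library. ETV5 ranged from 0.313 to 3.96 without 1 library. Genes higher by over 2-fold numbered 1 to 2 without 1 library, the second being SPRY2. Leaving out a library left 1 in its group, assumed to vary like the other group.

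Replicate numbers gave no pairing, as the deviations of same-numbered libraries correlated at 0.0346 across 12205 genes. With the replicate block DUSP1 was at -0.917, DUSP6 at 1.857 and SPRY4 at 0.585, and no member changed its side of the threshold.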
